A study of Mus musculus with 6 samples.

Results

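The axon guidance ligands and receptors are the netrins, Slits, semaphorins and ephrins and the receptors that read them, which are Dcc, the Unc5, Robo, neuropilin, plexin and Eph proteins. Members were chosen by gene name among the probes of the array that are not controls, which gave 101 of 55681 probes and 71 of 34797 gene names. The names Unc50 and Unc5cl matched the rule, but these genes are not guidance receptors, so 69 guidance genes on 99 probes remain. Of the 71 genes, 46 had 1 probe and 25 had several, and where a gene had several the brightest over the 6 arrays stands for it unless another probe is named.

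Expression was measured on 6 single-colour arrays of pup cerebellum at postnatal day 1, in offspring of C57BL/6J dams fed an amino acid-based AIN-93G diet with folic acid (FA) from 1 week before mating to the end of pregnancy. For each sex, 1 array held the offspring of dams at 2 mg FA per kg of diet and 2 arrays, replicates 1 and 2, those of dams at 20 mg per kg. All groups share strain, age and base diet, and every array is a pool of 3 pups from different dams, so pools can be set against each other at 20 mg, whereas 2 mg rests on 1 pool per sex. The repeat pools at 20 mg were extracted from a different batch, which the labels tie to neither replicate number, and a field of the labels gives whole brain as the tissue where the titles and the methods give cerebellum. The precision of each value is limited by the number of arrays.

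Guidance cues steer growth cones by attraction or repulsion. Netrin-1 attracts axons through Dcc and repels them where Unc5 receptors join, Slits repel through Robo receptors, class 3 semaphorins repel through neuropilin and plexin complexes, and ephrins and Eph receptors signal in both directions at cell contacts. In the developing cerebellum, the same systems guide precerebellar and granule cell migration, netrin-1 and Unc5c at the rhombic lip and Sema6a with plexin-A2 in granule cells among them.

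The arrays were not alike. Member probes well above background, a flag of the scanner software, numbered between 88 and 99 of 101 on 5 arrays. On female 20 mg replicate 2 there were 45, and 23.3% of all probes carried the flag there, against 51.1% to 71.9% on the others. The 2 mg arrays of both sexes and female 20 mg replicate 1 lie on slide 1, slide 2, scanned on an earlier day, held male 20 mg replicate 1 and the dim female array, and slide 3 held male 20 mg replicate 2 alone. For males, slide and dose cannot be told apart. The 2 pools at 2 mg, of different sex and on 1 slide, differed by 2.5-fold or more at 0 of 101 member probes (1.85% of all probes), while the 2 male pools at 20 mg differed from each other at 28 (27.7%, as of all probes) and the 2 female pools at 48 (47.5%, against 48.4% of all probes).

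The tissue markers also moved between arrays. Of 15 cerebellar genes, 13 to 15 were well above background on the 5 brighter arrays and 7 on female 20 mg replicate 2. Their summed level, of normalized intensities on the linear scale, was 54970 to 57154 at 2 mg and 31139 to 59873 at 20 mg. Most of this cerebellar sum was Zic1 on every array. That of 8 forebrain genes was 11172 to 18079 at 2 mg and 21215 to 74068 at 20 mg. On all arrays but female 20 mg replicate 1, most of this forebrain sum was Lhx6. The sum was, for 5 caudal Hox genes, 2725 and 14244 at 2 mg against 1204 to 13090 at 20 mg, and for 5 choroid plexus genes 2885 for females and 20842 for males against 27481 to 76474. Ttr made up most of the choroid plexus sum on every array. The part of these tissues in the differences given below was not tested.

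In males, no guidance gene passed the fold rule. By the fold rule of the study, a difference of 2.5-fold or more between the mean of the 20 mg arrays and the 2 mg array at a probe that passes a filter on variation, 0 of 101 member probes were lower at 20 mg (2.17% of all 55681 probes) and 0 were higher (1.42%). Without the variation filter, 2 were lower, Robo1 and Slit2 (3.22% of all probes), and 0 were higher (1.85%). Asked for on each of the 2 arrays, 2.5-fold was passed by 1 probe, that of Robo1, on the way down (1.29% of all probes) and by 0 on the way up (0.329%).

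In females, the counts were large and rested on the dim array. By the fold rule, 16 of 101 member probes were lower at 20 mg (15.8%, against 10.3% of all probes) and 5 were higher (4.95%, against 8.65%). Without the variation filter the counts were 18 (against 11.8% of all probes) and 7 (against 10.6%). On both 20 mg arrays, 0 member probes were lower by 2.5-fold (1.28% of all probes) and 1 was higher (0.476%). With female 20 mg replicate 2 left out and the remaining arrays normalized again, 0 member probes were lower (2.58% of all probes) and 3 were higher (1.77%).

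Over all probes, limma called none. Of 37211 probes tested, 0% passed an adjusted p of 0.05 for males, for females, for both sexes together or for the difference between the sexes, and at an unadjusted p under 0.05 there were 74, 161, 145 and 51. Of the 96 member probes in the fit, 0 reached an unadjusted p of 0.05 in any of these contrasts, and the median standard error of a dose difference within a sex was 1.47 on the log2 scale. The values below therefore describe 6 pools, and no gene is said to have changed by test.

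**Figure D1:**
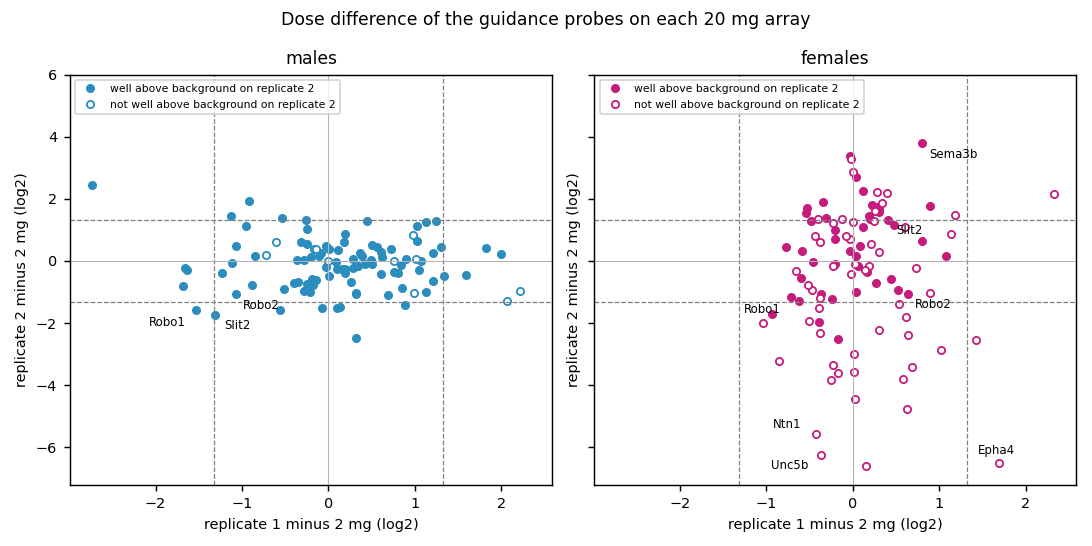
Log2 difference of each of the 101 member probes from the 2 mg array of its sex, on replicate 1 (x axis) and replicate 2 (y axis) at 20 mg, for males and females. Open circles are probes not well above background on replicate 2, and dashed lines mark 2.5-fold. In males Robo1 and Slit2 sit at the lower left, and in females the spread runs along the y axis, where 27 member probes lie 2.5-fold or more below and 26 above on replicate 2 (52.5% in all, against 47.6% of all probes).

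Among the Robo receptors, which respond to Slits at the growth cone, the Robo1 probe of NM_019413 read 12.55 on the log2 scale in males at 2 mg and 11.02 and 10.98 on the 2 arrays at 20 mg. In females it read 12.20 at 2 mg and 11.48 and 11.04 at 20 mg. All 4 arrays at 20 mg lay below both arrays at 2 mg, and the pools at 20 mg differed by far less than the doses in males. The mean difference in males was -1.55, a 2.93-fold lower level, with an SD between the pools at 20 mg of 0.023 (n = 2). In females it was -0.94, with an SD of 0.31. In limma, which takes the spread from all probes, the standard error for males was 1.04 and Robo1 did not pass in males (adjusted p = 1), although it ranked lowest in p among members there and over both sexes.

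A further probe of Robo1, of ENSMUST00000114274, went the other way. It lay at the floor of 3.32 in females at 2 mg, where it was not well above background, and at 5.66 and 5.48 at 20 mg, of which only replicate 1 was well above background. That is a level at least 2.84-fold higher at 20 mg, set against the lowest signal well above background, but with normexp background correction the difference was 0.20 on the log2 scale in place of 2.25. In males it read 4.54 at 2 mg and 6.75 and 3.57 at 20 mg, so the pools fell on either side. The probes share no direction, and the mean over both was -0.46 in males and 0.65 in females, so a direction for Robo1 holds for the probe of NM_019413 alone. The first 30 bases of these probes, and of the Slit2 probe, are shown since the results on this pair of genes rest on them, with G and C in capitals.
Robo1, NM_019413, mm9 chr16:73046190-73046249: CaGttCtaaGGGaaCaatCCaCGtGattaa
Robo1, ENSMUST00000114274, mm9 chr16:72956710-72956769: CaaaGaGttaaaGGtaatGGGtttGCtaaC
Slit2, NM_178804, mm9 chr5:48696673-48696732: GGGaGGGtGGGaGaaGaaaGaCtGttatGt

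Robo2, the receptor that acts beside Robo1 in commissural and longitudinal axons, read 12.12 in males at 2 mg and 11.05 on each array at 20 mg, a mean difference of -1.07. In females it read 11.86 against 12.50 and 10.80, on either side of the 2 mg value. Its other probes did not follow in males. The second probe of NM_175549 read 10.48 against 11.53 and 10.20, and that of BC055333 7.18 against 8.03 and 6.29, and the mean over all 3 probes was -0.24. Robo3, which lets commissural axons cross the midline by dampening Slit repulsion, read 6.60 in males at 2 mg and 7.62 and 7.73 at 20 mg, a difference of 1.08 upward on both arrays. In females it read 6.74 against 7.43 and the floor, 3.32, where it was not well above background. A dimmer Robo3 probe read 4.27 in males against the floor and 5.40, on either side, with a mean difference of 0.091. In females this dimmer probe read 4.88 against 4.65 and 6.11. It was not well above background on male 20 mg replicate 1 and female 20 mg replicate 2. The upward direction on both male arrays thus holds for the brighter Robo3 probe alone. Robo4, a Robo of vessels, read 10.62 against 10.48 and 10.00 in males and 10.75 against 10.22 and 12.44 in females, with no shared direction in females.

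Slit2, a secreted repellent made at the midline and read by Robo1 and Robo2, read 9.69 in males at 2 mg and 8.38 and 7.96 at 20 mg. In females it read 9.53 at 2 mg and 9.93 and 10.86 at 20 mg. The male pools at 20 mg lay below and the female pools above the 2 mg arrays, and the probe was well above background on all 6. The mean difference was -1.52 in males, a 2.87-fold lower level with an SD of 0.30 (n = 2), and 0.87 in females with an SD of 0.66. The difference between the sexes did not pass in limma (adjusted p = 1.00).

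Slit1, the Slit of neurons, showed the same split. It read 11.26 in males at 2 mg and 9.62 and 10.97 at 20 mg, and 11.28 in females at 2 mg and 11.58 and 12.86 at 20 mg. The difference of -0.96 in males came mostly from replicate 1, and the difference between the sexes did not pass in limma (adjusted p = 1.00), though its p ranked lowest among members. Slit3, in contrast, was higher on all 4 arrays at 20 mg, with 6.02 against 7.23 and 6.28 in males and 6.47 against 6.72 and 8.06 in females, and was not well above background on female 20 mg replicate 2. In all, 4 of 96 member probes were lower on both male and higher on both female arrays at 20 mg (4.83% of the probes in the fit), namely Slit1, Slit2, Sema3a and Sema5a. The reverse held for 5 (4.18%), those of Efnb3, Sema4d, Sema4g and the dimmer probes of Nrp2 and Ntn1. Both counts lie near the shares over all probes of the fit.

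**Figure D2:**
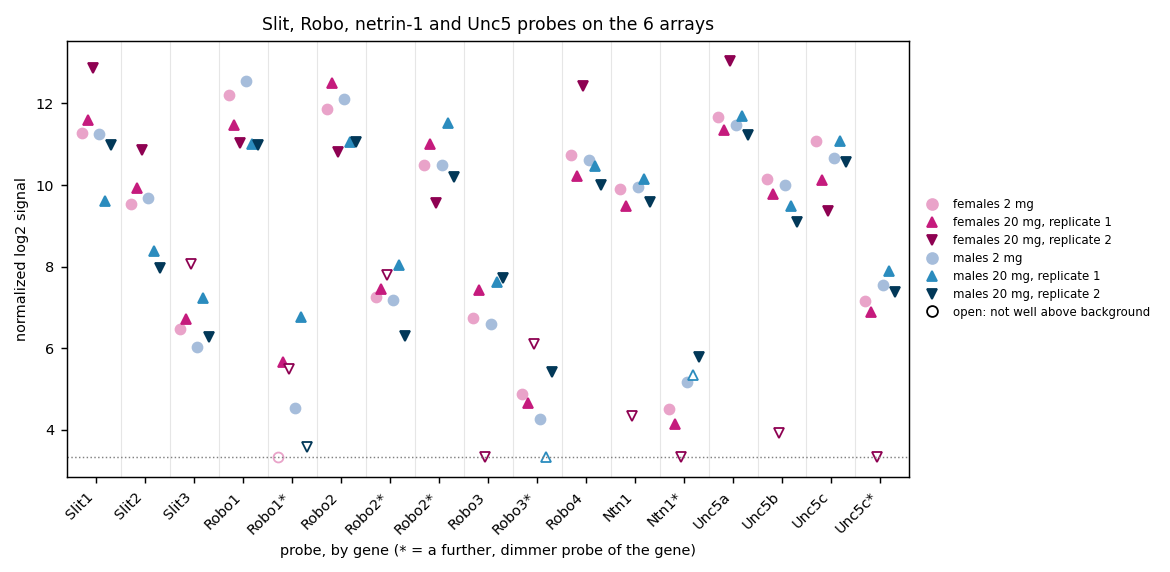
Normalized log2 signal of every probe of Slit1 to Slit3, Robo1 to Robo4, Ntn1 and Unc5a to Unc5c on the 6 arrays (y axis), by probe (x axis), where an asterisk marks a further, dimmer probe of the gene, open symbols are not well above background and the dotted line is the floor of 3.32. For the Robo1 probe of NM_019413 the 4 arrays at 20 mg lie below both arrays at 2 mg, and for Ntn1 and Unc5b the array female 20 mg replicate 2 alone lies far down, at 4.34 and 3.92. Heights of different probes are not comparable.

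The base composition of the probes moved with the differences on 1 array. Across the 101 member probes, the difference of male 20 mg replicate 2 from the male 2 mg array had a Spearman correlation of 0.63 with the G and C content of the 60-base probe, and 0.40 across all 55681 probes. For male 20 mg replicate 1 the values were 0.054 and -0.0076, for female replicate 1 they were 0.012 and -0.11, and for female replicate 2 they were 0.18 and 0.042. These describe probes that share an array and are no test. On male 20 mg replicate 2, the 45 member probes with at most 40% G and C had a median difference of -0.67 and the 16 with over 50% a median of 0.53. The probes of Robo1, Robo2 and Slit2 each have 35%, and of the 28 member probes at 35%, 25 lay lower on this array, with a median of -0.93 and a lowest value of -1.73, that of Slit2. On male 20 mg replicate 1, 14 of these 28 lay lower, with a median of 0.011, while Robo1 lay at -1.53 and Slit2 at -1.31. With the median difference of every 5% class of G and C content set to that of all probes on each array, an adjustment chosen after the data were seen, the male difference was -1.39 for Robo1, -1.36 for Slit2 and -0.91 for Robo2.

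**Figure D3:**
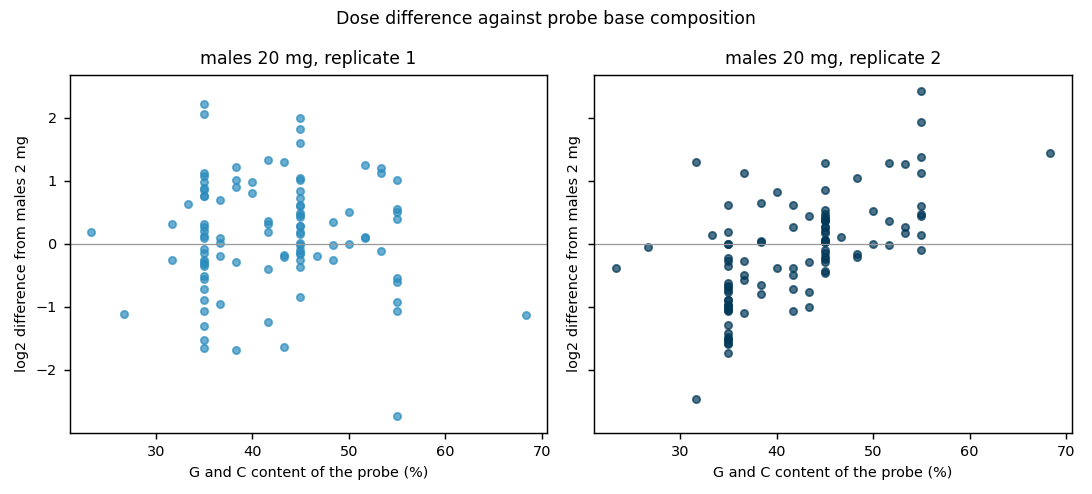
Log2 difference of the 101 member probes from the male 2 mg array (y axis) against the G and C content of the probe in percent (x axis), for male 20 mg replicate 1 and replicate 2. On replicate 2 the points climb from left to right (Spearman 0.63), and on replicate 1 they show no such slope (0.054).

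Plexin-A1, a semaphorin co-receptor, is the member whose male pools at 20 mg differed most from each other. Its probe, with 55% G and C, read 8.75 at 2 mg and 6.01 and 11.18 at 20 mg, so the mean difference of -0.15 stands for 2 pools far on either side. In females it read 8.95 against 7.91 and 6.94. Its first 30 bases are shown for comparison with the Robo1 and Slit2 probes above, which have 35% G and C over all 60 bases. The first 30 bases of the Slit2 probe are richer in G and C than the whole probe.
Plxna1, NM_008881: CtCGCCttCCtCtCCCtGCCatGCaGGCCa

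The netrin system turned on the dim array. Netrin-1, the founding attractant, read 9.90 in females at 2 mg, 9.48 on replicate 1 and 4.34 on replicate 2 at 20 mg, where the probe was not well above background. In males it read 9.96 against 10.16 and 9.57. The female difference of -2.99, a 7.97-fold lower mean with an SD of 3.63 between the pools, thus came almost wholly from replicate 2, and without that array it was -0.42. The other netrin-1 probe read 4.51 in females at 2 mg against 4.14 and the floor, and 5.16 in males against 5.35 and 5.77. Ntn3 read 7.78 in males against 8.38 and 7.35 and 7.59 in females against 7.78 and 7.42, with no direction in either sex. Ntn4 was well above background on 1 array and Ntn5 on none, although Ntn5 passed the fold rule in females (3.32 at 2 mg and on replicate 1, 6.18 on replicate 2).

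Of the repulsive netrin receptors, Unc5b, known from vessel branching as well as from neurons, read 10.16 in females at 2 mg and 9.79 and 3.92 at 20 mg, and 9.99 in males against 9.48 and 9.10. It lay lower on all 4 arrays at 20 mg. The male difference was -0.70 with an SD of 0.27 and the female difference -3.30 with an SD of 4.15, since replicate 2 again was not well above background. Unc5c, the receptor whose loss sends cerebellar granule cells astray in mice, read 11.07 in females against 10.13 and 9.35, lower on both arrays and well above background on both, with a difference of -1.33 at a probe that the variation filter dropped. In males it read 10.66 against 11.08 and 10.56. Its dimmer probe read 7.15 in females against 6.90 and the floor. Unc5a showed no shared direction (11.66 against 11.35 and 13.05 in females, 11.48 against 11.68 and 11.22 in males), and Unc5d was well above background on 1 array.

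For Dcc, the attractive netrin receptor, the 3 probes did not speak for the same transcript. The brightest, at 16.90 in males at 2 mg and 17.21 and 14.42 at 20 mg, is placed by the array design on chromosome 7 in mm9, away from the gene, where the design puts the others. Its female values were 16.77 against 17.03 and 16.07. Of the 2 probes at the gene, the brighter read 5.79 in males against 7.61 and 6.21 and 5.40 in females against 5.65 and 6.69, higher on all 4 arrays at 20 mg, though not well above background on female replicate 2. The other was well above background on 2 arrays. No level of Dcc can be taken from the brightest probe.

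Among neuropilins, the ligand-binding receptors of class 3 semaphorins, Nrp1 read 8.27 in females at 2 mg and 8.29 and 5.26 at 20 mg, and 8.06 in males against 8.07 and 7.57. The female difference of -1.49 is that of replicate 2, where the probe was not well above background. Nrp2 read 12.63 in females at 2 mg and 12.82 and 13.98 at 20 mg on the probe of NM_001077403, a difference of 0.78 with an SD of 0.82, and 12.48 in males against 12.57 and 12.21. The probe of NM_001077406, which the array design assigns to another transcript of the gene, read 10.07 in females against 9.57 and 8.14 and 9.36 in males against 10.09 and 9.74. The female direction was thus up on both arrays for the former and down on both for the latter, which was not well above background on replicate 2, and the mean over the probes was -0.22. The start of each is shown since the choice between them sets the sign.
Nrp2, NM_001077403, mm9 chr1:62865129-62865188: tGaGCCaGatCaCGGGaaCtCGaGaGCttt
Nrp2, NM_001077406, mm9 chr1:62843298-62843357: GGtttCtGttGGCtGtCattGtCatCtCCa

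Of the 7 class 3 semaphorins, 4 had a lower mean at 20 mg in males, and the family median was -0.11 on male replicate 1 and -0.97 on replicate 2. The brightest probes of Sema3a, Sema3c, Sema3d, Sema3e and Sema3g have 35% G and C. The 28 member probes at 35% had medians of 0.011 and -0.93 on these 2 arrays. Sema3a, a repellent that acts through Nrp1, read 10.16 in males against 9.88 and 9.19 and 10.60 in females against 10.68 and 11.07. Its dimmer probe read 5.65 in males against 5.63 and 6.13 and 5.65 in females against 5.27 and the floor. Its mean difference had the opposite sign in both sexes, 0.23 in males and -1.35 in females. Sema3f, which acts through Nrp2, read 11.88 in males against 11.77 and 12.05 and 11.44 in females against 11.10 and 13.34. In females the mean difference was 0.27 for Sema3a, as large as the SD between the pools at 20 mg, and 0.78 for Sema3f, with an SD of 1.59. Sema3e, which binds plexin-D1 directly, read 7.78 in males against 6.89 and 7.01, a difference of -0.83 with both arrays lower, and 7.76 in females against 7.79 and the floor. Sema3g read 8.71 in males against 8.14 and 7.12. Sema3b had the highest female value of the family relative to 2 mg, at 7.96 against 8.76 and 11.74, a difference of 2.29, and in males it read 8.32 against 9.16 and 8.18.

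The 13 transmembrane or anchored semaphorins of classes 4 to 7 were well above background on all 5 brighter arrays, and their differences were small in the family as a whole. The median was -0.043 in males, with a range from -0.94 to 0.87, and -0.15 in females, with a range from -0.88 to 1.37. Sema6a, which pairs with plexin-A2 and plexin-A4, read 11.09 in males against 11.06 and 10.88 and 10.83 in females against 10.63 and 11.53. Plexin-A2 read 12.40 in males against 12.05 and 11.73, lower on both arrays, and 12.71 in females against 12.77 and 12.54. Plexin-A4 read 12.15 in males against 11.87 and 12.19 and 13.04 in females against 12.42 and 11.75, lower on both female arrays by a mean of 0.95. A further plexin-A2 probe, placed by the design on chromosome 13 and not on chromosome 1 where the gene lies, passed the fold rule in females and is not read as plexin-A2. Among other members, Sema4g read 10.65 in males against 11.10 and 11.93 and 11.19 in females against 10.94 and 9.97, and Sema6c read 11.15 in females against 11.20 and 13.85. The other Sema6c probe read 10.64 in females against 10.05 and 10.10, lower on both arrays. Sema4c, a ligand of plexin-B2, lay higher on all 4 arrays at 20 mg, with 13.83 against 14.02 and 14.69 in males and 13.59 against 13.89 and 15.25 in females.

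Ephrin-B ligands, transmembrane partners of the EphB receptors, had a higher mean at 20 mg in males in 3 of 3 genes, from 0.17 to 0.51, each well above background on all arrays. Efnb1 read 11.33 against 11.84 and 11.85 in males and 11.37 against 11.33 and 11.68 in females. Efnb2 read 10.43 against 11.77 and 9.94 in males and 10.31 against 11.39 and 10.46 in females, so the male mean covers pools on either side. Efnb3, the ephrin that bars corticospinal axons from recrossing the midline, read 13.12 against 13.40 and 13.18 in males and 12.86 against 12.69 and 10.33 in females. Among their receptors, Ephb1 read 13.25 against 13.56 and 12.20 in males and 12.52 against 12.96 and 11.93 in females, and Ephb2 7.83 against 6.91 and 9.76 in males and 7.84 against 7.44 and 9.19 in females, with no shared direction. Ephb4, the receptor of venous endothelium, read 7.73 in females against 7.69 and 11.11, so its difference of 1.68 is that of replicate 2.

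EphA receptors and ephrin-A ligands hold repulsive gradients in the brain. The median difference of the 9 EphA receptors was 0.76 on male replicate 1 and -0.00057 on replicate 2, and 0.22 and 0.60 on the female arrays, against 0.089, -0.16, 0.028 and -0.48 over all probes of the fit. Epha4 read 9.84 in females at 2 mg and 11.54 at 20 mg on replicate 1, then the floor on replicate 2, so the mean of -2.41 covers differences of 1.70 and -6.52 on the log2 scale. Epha3 followed the same course, with 8.08 against 8.71 and the floor. Epha7 read 8.31 in males against 10.31 and 8.52, while another of its probes read 8.80 against 7.12 and 8.00, so its probes differed in direction. The 3 probes of Epha5 also parted in females, with 11.71 against 11.93 and 13.52 on the brightest and 11.52 against 11.67 and 4.94 on that of ENSMUST00000051774, which ranked lowest in p among members in females (limma, adjusted p = 1). Efna4 lay higher on all 4 arrays at 20 mg, with 6.11 against 7.23 and 7.37 in males and 5.99 against 7.17 and 7.46 in females, a difference of 1.20 and 1.32. The probe was not well above background on female replicate 2, and its female difference was -0.22 in the authors' value table and -0.41 with the floor set before normalization. Efna1 read 7.69 in females against 8.59 and 9.47 and 8.13 in males against 9.02 and 6.70, and Efna2 lay lower on all 4, with 9.76 against 8.52 and 9.38 in males and 9.81 against 9.42 and 8.31 in females.

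**Figure D4:**
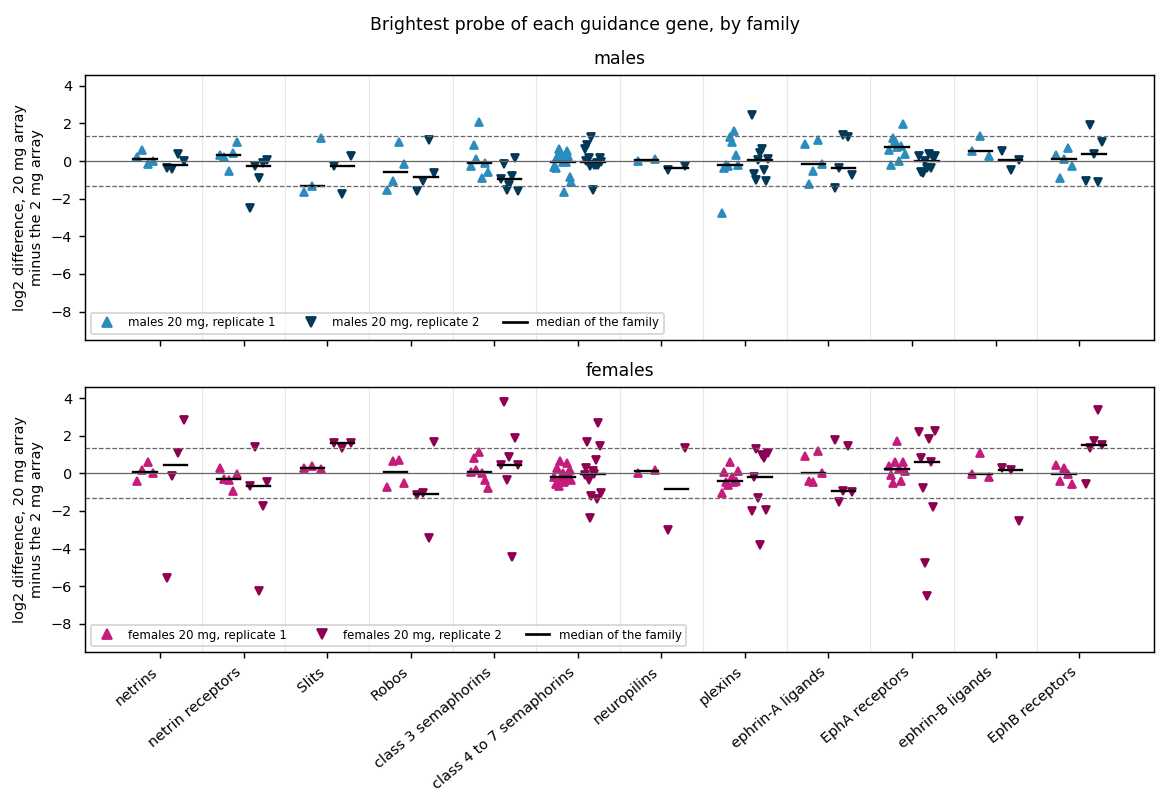
Log2 difference of each 20 mg array from the 2 mg array of its sex (y axis) for the brightest probe of each guidance gene, by family (x axis), with males above and females below. Horizontal bars are family medians and dashed lines mark 2.5-fold. On the male arrays the Robos have the medians -0.61 and -0.85, and on female replicate 2 the points of most families spread over several log2 units.

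Across the families, no direction was shared by the members as a whole. Of the 71 genes, 35 had a lower mean at 20 mg in males and 34 in females, and the median difference was 0 in males, the value of Ntn5 at the floor, and 0.093 in females, against 0 over all probes in both sexes. Over the probes of the fit, the median was -0.039 in males and -0.21 in females. Lower on all 4 arrays at 20 mg were 7 of 96 member probes (6.69% of the probes in the fit), those of Efna2, Robo1, Sema5b, Sema7a and Unc5b and dimmer probes of Epha7 and Plxnc1. Higher on all 4 were 9 (5.13% of the probes in the fit), those of Efna4, Epha1, Epha5, Epha8, Ephb3, Sema4c and Slit3 and dimmer probes of Dcc and Plxnd1. Of the 25 genes with several probes, the probes differed in the sign of the mean difference for 19 in males and 11 in females. The median range between probes of a gene was 0.84 in males and 0.99 in females. These include the Dcc and plexin-A2 probes placed away from their genes. The share over all genes with several probes is not given here, so the counts are not read as particular to the members.

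Genes that carry the signal inside the growth cone were read from a separate list. Of 43 found on the array, 0 were lower in males by the fold rule and 1 was higher (2.17% and 1.42% of all probes). The gene was Srgap2, at 8.35 against 6.83 and 12.69, where the pools fell on either side. In females 11 were lower and 0 higher (10.3% and 8.65% of all probes). These calls came from replicate 2, where 9 of the 11 were not well above background and the difference from 2 mg ran from -6.54 to -3.08, against -0.71 to 0.97 on replicate 1. Among them were Gap43, a growth cone protein, with 16.68 against 15.97 and 10.23, Trio, a partner of Dcc signalling, with 12.30 against 12.64 and 7.35, and Rhoa, with 11.82 against 11.17 and 8.73. Of the 32 other guidance and adhesion genes, 1 was lower in males (2.17% of all probes), Ptch1, the receptor of Sonic hedgehog, at 8.78 against 5.92 and 6.52. In females 4 were lower (10.3% of all probes), none of them well above background on replicate 2. The median differences of the lists were -0.12 and -0.14 in males and -0.44 and -0.20 in females, against 0 over all probes and -0.039 and -0.21 over the probes of the fit.

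Folate supplies methyl groups, and methylation of CpG sites at a gene's start is a known mark of silencing, but methylation was not measured here. For context, the 250 bases before the start of a gene in GRCm38.p6 were read from RefSeq for the 61 of 71 members listed there. They held a median of 16 CpG sites against 6 over 27025 genes, and 59% of members against 27.5% of all genes held 15 or more. Slit2 held 25 and Robo1 11. These are printed, 5′ to 3′ on the plus strand with CpG in capitals, since they belong to the ligand and receptor that passed 2.5-fold in males.
Slit2, chr5:47982905-47983154: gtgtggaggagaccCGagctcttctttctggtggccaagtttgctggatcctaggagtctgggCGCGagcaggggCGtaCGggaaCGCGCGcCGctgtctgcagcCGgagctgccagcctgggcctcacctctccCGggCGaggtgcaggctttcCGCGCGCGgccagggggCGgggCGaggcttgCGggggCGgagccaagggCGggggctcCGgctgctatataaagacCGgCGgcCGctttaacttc
Robo1, chr16:72662899-72663148: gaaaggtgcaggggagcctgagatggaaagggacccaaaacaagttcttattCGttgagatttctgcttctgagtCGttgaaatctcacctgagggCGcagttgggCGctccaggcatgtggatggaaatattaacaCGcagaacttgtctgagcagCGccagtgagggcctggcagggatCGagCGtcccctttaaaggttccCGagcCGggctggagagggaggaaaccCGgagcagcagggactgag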

How the data were processed

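RNA was measured on 6 Agilent 60-base mouse arrays. The processed signal and the mean and local background intensity of each spot were written by the authors with Feature Extraction 10.7.3.1, per the file headers, and the processed signal is already background-subtracted and not scaled between arrays. The authors' deposited value table holds log2 values after quantile normalization and a floor, per the methods, and served as an alternative. Here, outlier spots were left out, probes averaged, log2 values quantile normalized across all 6 arrays, and values under 10 on the linear scale set to 10. The variation filter compares a probe's variance with the median variance (chi-square p at most 0.05) and kept 15247 probes, 25 of them members. The fold rule uses 2.5-fold. limma 3.58.1 (R 4.3.3) was fitted to 4 groups with a trend, on 37211 probes complete and well above background on at least 2 arrays, with 2 residual degrees of freedom, and the lone array at 2 mg is assumed to vary like those at 20 mg. p-values measure the spread between the 2 pools at 20 mg of each sex, which share the dams' diet. The 2 lay on different slides scanned on different days, so pool, slide and scan day cannot be told apart in that spread. The code of the fit was checked on simulated data. Recovery was required there only at noise well below that of these data, whose typical SD in the fit was 1.32 on the log2 scale. A fold given as "at least" sets a group not well above background at the lowest signal well above background on its array.

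Named genes are those that the study lists, the core ligand and receptor pairs and, in each sex and direction, up to 5 members that differed most at their brightest probe, plus others chosen after their values were seen (Sema4c, Efna2, Epha5, Plxna1, Ntn3, Ntn4, Ntn5, Robo4 and those of the lists). The members, lists and tests were chosen with earlier results of these data known. Probe positions come from the array design (mm9). RefSeq served for names, with 91 of 92 RefSeq accessions of member probes matched, and for promoters. In a bulk pool, fewer cells of a type and less RNA per cell cannot be told apart. Alternatives were another scaling, background correction, floor, filter and probe rule, each 20 mg array left out, blocks for replicate number and slide, and an added adjustment for base composition.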

Additional observations from a re-analysis of the deposited data

How the results depend on the processing

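The call of no member by the limma fit held under all settings but the omission of female 20 mg replicate 1, where Epha5 was called in females. Over all probes, calls in females numbered 3 with a 75th percentile shift and 3 with normexp, and 1 in males with the authors' table. Leaving out a 20 mg array gave 0 to 1 calls in males, 0 to 96 in females, 0 to 13 over both sexes and 0 to 2 for the difference between the sexes. With the replicate number as a block there were 1, 10 and 13 calls in males, females and both sexes and 0 for their difference. The numbers share only a label, since replicate 1 minus replicate 2 correlated by 0.087 between the sexes. With slide 2 as a block there were 0 calls in each contrast. Member probes past the fold rule in females numbered 0 lower and 0 higher under the 75th percentile shift (0.636% and 3.09% of all probes). In females the median over all probes then moved by 1.04. With normexp there were 4 lower and 3 higher (3.97% and 2.42% of all probes). With the authors' table there were 18 and 4 (10.4% and 4.24%). With the floor set before normalization there were 23 and 5 (13.3% and 4.56%). Among probes well above background on every array of a dose, 3 members were higher, and the share over all probes is not given here. In males, 2 were lower and 1 higher with the authors' table (2.41% and 1.34% of all probes). With the floor set before normalization 1 was lower (2.65%), and without the variation filter 2 were lower (3.22%). With an array left out the counts ran from 0 to 3 lower and 0 to 3 higher in males. The shares over all probes then ran from 1.88% to 5.08% lower and from 1.23% to 4.26% higher. In females the counts ran from 0 to 20 lower and 3 to 7 higher, against 2.58% to 13.7% and 1.77% to 10.6% of all probes. The female median of the members ran from 0.032 to 0.31. The cause of these shifts was not tested. Among the named genes, female differences that passed the rule and changed sign were, with an array left out (lowest and highest), Nrp1 -2.93 and 0.019, Ephb4 -0.035 and 3.36, Epha3 -4.36 and 0.64, Plxnb1 -3.70 and 0.60, Robo3 -3.05 and 0.74, Sema3e -4.05 and 0.032 and Epha4 -6.10 and 1.63. Within slide 1, where female replicate 1 stands alone against 2 mg, they were 0.018, -0.033, 0.62, 0.58, 0.69, 0.029 and 1.70 in the same order, and Robo3 was 0.29 with the 75th percentile shift. The male difference of Slit2 ran from -1.70 to -1.18 over 10 alternatives. That of Robo1 ran from -1.60 to -0.46, where -0.46 is the mean over both Robo1 probes. For the probe of NM_019413 alone it ran from -1.60 to -1.47 with an array left out. The female direction of Unc5b and of the brighter Ntn1 probe was down in all 11.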
